A study of Mus musculus with 6 samples.

Results

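Ascl2 and the genes around it on distal chromosome 7 were followed in mouse bone marrow stromal cells treated with GCA or with PBS. The set has 9 genes of the 27263 listed: Ascl2, Tspan32, Cd81, Tssc4, Kcnq1, Cdkn1c, Slc22a18, Phlda2 and Nap1l4. Ascl2 was chosen by its measured FPKM, as a gene with a large rise after GCA. It ranked 7 by log2 difference among called genes with every GCA library above every PBS library, predicted genes left out. The other 8 were listed as its neighbours, with earlier results of these data known. The list does not hold every gene of the region, since Tspan32os, Trpm5 and Kcnq1ot1 lie among the members and were left out. Of the 9 genes, 8 had values, 7 reached the filter for testing (1 FPKM or more, averaged over all 6 libraries), Kcnq1 lay below it, and Phlda2 was not analysed here. The deposited values are FPKM by their pattern, and each library stood for 17543509 to 18645932 fragments. FPKM is a fragment count scaled by exon length and by library size, so levels can be set side by side between genes, but only roughly. The length counts all annotated exons of a gene, whether or not its transcripts in these cells use them.

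The 2 groups were 3 libraries of cells given rGCA at 50 nM for 3 days and 3 libraries of cells given PBS, the buffer control, for the same time. Both came from C57BL/6 mice. Marrow of the long bones had been sorted for Sca-1 and CD29 and against CD45 and CD11b, and the sorted cells were grown with 10% serum. The labels do not spell GCA out. Knowledge of the study gives grancalcin, a protein of myeloid cells that binds calcium. The labels used here give no genotype, age or animal count, and do not say that replicates came from separate animals, so p-values measure the spread between these libraries, which may be technical. With a single inbred strain the reads do not tell the parental alleles apart, so no imprint was measured.

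ASCL2 is a basic helix-loop-helix transcription factor that binds E-box DNA together with an E protein. In the mouse it is needed for the spongiotrophoblast of the placenta, and it is also known from intestinal stem cells and follicular helper T cells. Its gene lies in a cluster of imprinted genes. The long noncoding RNA Kcnq1ot1, made from the paternal chromosome, silences neighbours such as Cdkn1c, Phlda2 and Slc22a18 there, so that they are expressed from the maternal copy. Several outer members, Ascl2, Tspan32, Cd81 and Tssc4 among them, have been found imprinted mainly in mouse placenta.

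Ascl2 (ENSMUSG00000009248, chromosome 7, 142966829 to 142969264, minus strand, in GENCODE M21 on GRCm38) was at 6.38, 6.64 and 6.31 FPKM in the 3 GCA libraries, against 1.22, 1.56 and 1.04 FPKM in the 3 PBS libraries. The GCA libraries lay close together, and each was far above every PBS library. These values stood for 185, 189 and 191 fragments with GCA and for 36, 46 and 30 with PBS. Group means were 6.44 ± 0.172 FPKM with GCA and 1.27 ± 0.266 FPKM with PBS (SD, n = 3 each), a ratio of 5.07, and the difference was 1.72 on the log2(FPKM + 1) scale. That difference was what chose the gene, so it is given as a description without a test. It ran from 1.64 to 1.81 when each library was left out in turn. In such bulk RNA, a change in the number of cells of a type and a change in RNA per cell cannot be told apart. Macrophage transcripts were abundant in all libraries and differed between the groups, as given with the marker lists. Of its family, Ascl3 and Ascl4 were each below the filter in both groups.

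Tspan32 and Slc22a18 were also higher with GCA, and these were the neighbours whose rise passed the test. Tspan32 (ENSMUSG00000000244, chromosome 7, 143005046 to 143019644), a tetraspanin of blood cells, starts 35.8 kb from the Ascl2 start site. It was at 2.67, 3.20 and 2.78 FPKM with GCA, against 1.20, 1.27 and 1.13 FPKM with PBS. The lowest GCA library was above the highest PBS library, and the ratio of means was 2.40. On the log2(FPKM + 1) scale Tspan32 rose by 0.82 (SE 0.079, limma adjusted p = 0.000676).

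Slc22a18 (ENSMUSG00000000154, chromosome 7, 143473736 to 143499334), a membrane transporter of the organic cation family, starts 504.5 kb from Ascl2, on the far side of Kcnq1 and Cdkn1c. It was at 3.82, 2.95 and 3.38 FPKM with GCA, against 1.97, 1.75 and 1.62 FPKM with PBS, which were 116, 88 and 107 fragments against 61, 54 and 49. The groups did not overlap, although the GCA libraries spread more widely. The rise was 0.66 (SE 0.091, limma adjusted p = 0.00284), a ratio of means of 1.90.

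The sequences before the start sites of Ascl2, Tspan32 and Slc22a18 are shown because these genes were higher with GCA, and E-boxes are the elements that ASCL factors bind. They are RefSeq sequences on GRCm38.p6, written 5′ to 3′ in the direction of the gene, with E-boxes (CANNTG, either strand) in capitals. They run from chr7:142969265-142969514 (minus strand) for Ascl2, chr7:143004796-143005045 (plus strand) for Tspan32 and chr7:143473539-143473735 (plus strand) for Slc22a18.
Ascl2: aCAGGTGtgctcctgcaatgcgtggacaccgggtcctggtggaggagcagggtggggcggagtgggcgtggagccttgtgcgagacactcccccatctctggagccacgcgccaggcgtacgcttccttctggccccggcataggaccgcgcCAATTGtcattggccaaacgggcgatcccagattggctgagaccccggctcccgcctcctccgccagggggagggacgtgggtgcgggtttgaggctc
Tspan32: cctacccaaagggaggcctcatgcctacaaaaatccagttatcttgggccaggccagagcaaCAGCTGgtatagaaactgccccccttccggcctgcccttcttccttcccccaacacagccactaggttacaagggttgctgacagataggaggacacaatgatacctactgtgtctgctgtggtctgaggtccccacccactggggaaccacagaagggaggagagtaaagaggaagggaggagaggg
Slc22a18: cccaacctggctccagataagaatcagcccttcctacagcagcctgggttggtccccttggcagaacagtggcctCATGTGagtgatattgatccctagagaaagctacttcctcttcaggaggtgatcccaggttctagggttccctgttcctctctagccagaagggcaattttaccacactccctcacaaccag
The last stops 53 bases short of its RefSeq start site, where the GENCODE M21 transcript begins.

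In the 250 bases before the RefSeq start site, Ascl2 held 2 E-boxes, CAGGTG at -249 and CAATTG at -98, counted back from the start site. Tspan32 held CAGCTG at -188 and Slc22a18 held CATGTG at -175. Cd81, which did not pass the test, held CAGCTG at -145, Phlda2 held it at -246, and Tssc4 held no E-box. An E-box of some kind was found in 66.2% of the 32851 promoter windows of this length, and CAGCTG in 4271 of them. Ascl2 also held 3 CCAAT boxes (CCAAT on either strand, one of them overlapping CAATTG), and Tspan32 and Slc22a18 held none, while Tssc4 and Phlda2 held 1 each, where 33.8% of windows held at least 1. GAGGAA, the PU box that the ETS factor PU.1 binds, stood once in Tspan32, 2 times in Slc22a18, once in Tssc4, which did not pass, and not in Ascl2, against 23.3% of windows. CpG pairs numbered 19 for Ascl2, 1 for Tspan32 and 0 for Slc22a18, with a median of 6 over all windows. Such matches describe letters and show no binding.

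**Figure D1:**
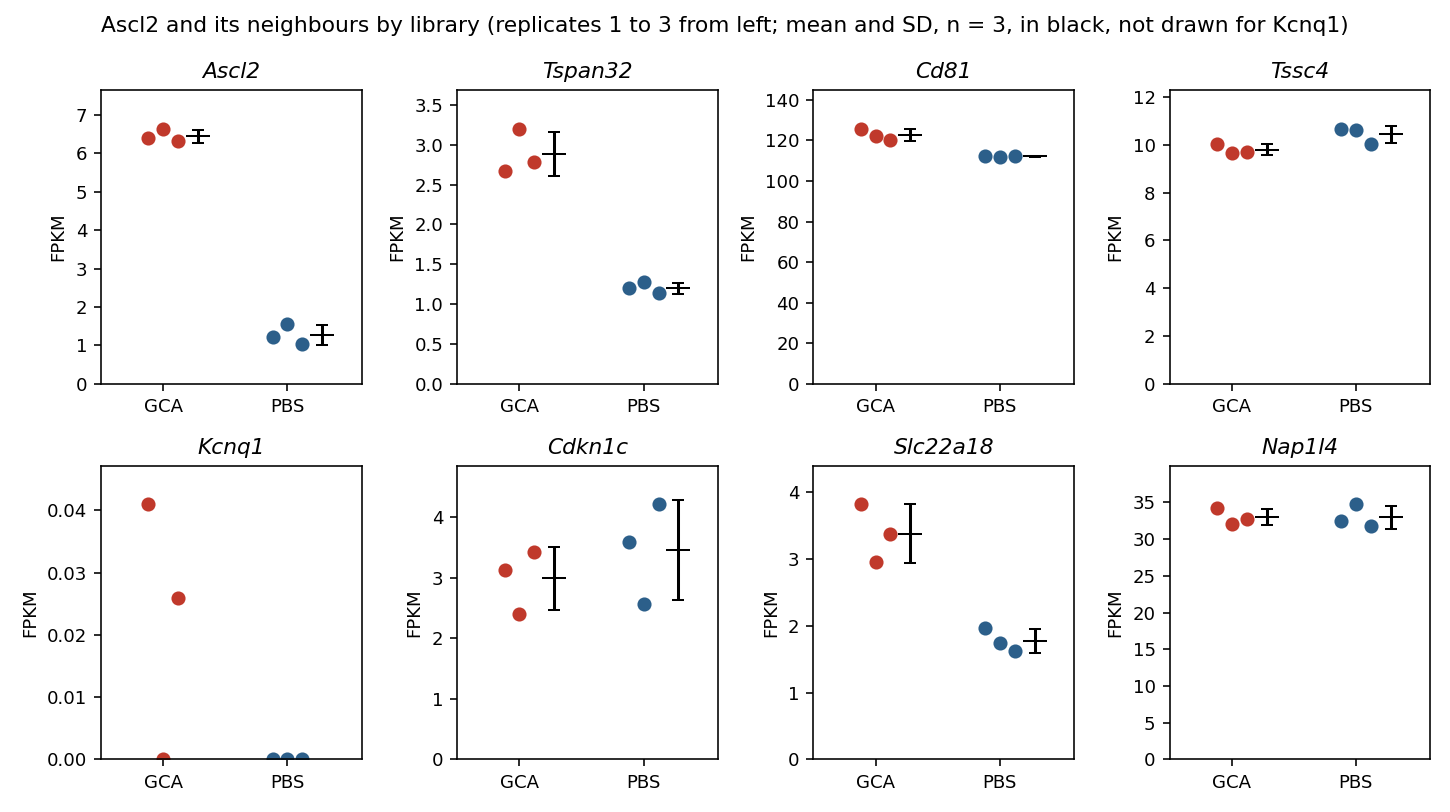
Level in FPKM (y axis, from 0, a different scale in each panel) of the 8 genes with values, for the 3 GCA libraries on the left and the 3 PBS libraries on the right of each panel. Ascl2, Tspan32, Slc22a18 and, by a small margin, Cd81 have every GCA library above every PBS library, and Tssc4, Cdkn1c and Nap1l4 overlap.

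Cd81, Tssc4, Cdkn1c and Nap1l4 did not pass the test. Cd81 (chromosome 7, 143052739 to 143067934) encodes a tetraspanin that clusters integrins in the membrane. It was the most abundant of the set, at 125.8, 122.0 and 120.3 FPKM with GCA, against 112.4, 111.8 and 112.5 FPKM with PBS. The groups did not overlap, and the ratio of means was 1.09. The difference of 0.13 log2 units had a 95% interval of 0.03 to 0.22, and its limma adjusted p of 0.0689 missed the threshold of 0.05.

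Tssc4 (chromosome 7, 143069249 to 143071093), which in human cells takes part in assembling the spliceosome, was at 10.0, 9.64 and 9.68 FPKM with GCA, against 10.7, 10.6 and 10.03 FPKM with PBS. The GCA libraries lay at the lower end and the groups overlapped (log2 difference -0.09, 95% interval -0.20 to 0.03, limma adjusted p = 0.275). Nap1l4 (143513579 to 143549106), a histone chaperone, was at 34.2, 32.0 and 32.8 FPKM with GCA, against 32.5, 34.8 and 31.8 FPKM with PBS. Its group means, 33.03 ± 1.11 and 33.01 ± 1.56 FPKM (SD, n = 3 each), were nearly equal, with a 95% interval of -0.12 to 0.12 for the log2 difference (limma adjusted p = 0.992).

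Cdkn1c, which encodes the cyclin-dependent kinase inhibitor p57, lies at 143458339 to 143461050 and had the largest standard error of the tested neighbours (0.154 log2 units). It was at 3.13, 2.40 and 3.42 FPKM with GCA, against 3.58, 2.57 and 4.21 FPKM with PBS. Replicate 2 was lowest in both groups, and the groups overlapped. The log2 difference was -0.15, with a 95% interval of -0.51 to 0.21 (limma adjusted p = 0.539), so the interval holds neither the difference of Tspan32 nor that of Slc22a18.

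Kcnq1, the pore subunit of a voltage-gated potassium channel, was hardly detected. It had 3, 0 and 2 fragments in the GCA libraries and 0 in each PBS library, and at this depth a count of 0 allows up to 3 fragments, or 0.0402 to 0.0411 FPKM in the PBS libraries, for counting error only. A difference was not detectable at this depth. Kcnq1ot1, its antisense RNA, was at 0.146, 0.130 and 0.098 FPKM with GCA, against 0.124, 0.129 and 0.176 FPKM with PBS, and the groups overlapped. The sources used here do not say whether counting used strand, so reads of overlapping genes on opposite strands cannot be told apart. Exon overlap with a gene on the other strand covered 30.7% of the Cdkn1c exons, 11.9% of those of Tssc4 (with Trpm5), 4.3% of Tspan32, 3.6% of Cd81 (with R74862), 3.0% of Kcnq1 and none of Ascl2, Slc22a18 or Nap1l4.

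By level, the order with GCA was Cd81, Nap1l4, Tssc4, Ascl2, Slc22a18, Cdkn1c and Tspan32, and the ranges of the last 3 overlapped. With PBS the order was Cd81, Nap1l4, Tssc4, Cdkn1c, Slc22a18, Ascl2 and Tspan32, and the ranges of the last 2 overlapped. Ascl2 thus stood among the lowest of the set with PBS and directly after Tssc4 with GCA. These orders depend on the exon lengths used. Tspan32, last in both, was scaled by 6234 exon bases. It had 970 fragments in all with GCA and 406 with PBS, against 565 and 112 for Ascl2.

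Among the 6 neighbours of Ascl2 that were tested, Tspan32 and Slc22a18 rose, none fell and the remaining 4 missed the threshold. Among all 11984 genes tested, 1380 (11.5%) were higher and 771 (6.43%) were lower, 17.9% in either direction. After quantile normalization the split over all genes was 1198 higher and 1027 lower. The groups stood apart for 3 of the 6 neighbours, all with GCA above, against 21.6% of all tested genes with GCA above, 16.8% with GCA below and 38.5% in either direction. The median log2 difference was 0.06 over the 6 neighbours and 0.01 over all tested genes. The count over all genes was 1375 without GCA replicate 1, 1308 without PBS replicate 2 and 1232 without PBS replicate 3, while Tspan32 and Slc22a18 kept their calls without any 1 of the 6 libraries (adjusted p = 0.00134 to 0.00522 and 0.00218 to 0.015).

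Both higher and lower genes were found along the wider stretch from H19 to Nadsyn1 (142575529 to 143822849), which spans 1247.3 kb and holds 55 annotated genes. The 16 that reached the filter included Ascl2. Of the 15 others, 3 rose (Tspan32, Slc22a18 and Nadsyn1), 4 fell (Cars, Tnfrsf26, Tnfrsf23 and Osbpl5) and 8 did not pass. That was 46.7% past the threshold, against 17.9% of all tested genes. The count was 4 of the 15 without GCA replicate 1, GCA replicate 3, PBS replicate 2 or PBS replicate 3. In those runs the count over all tested genes also fell, from 2151 to 1375, 1532, 1308 and 1232. All 4 that fell lie together, beyond Nap1l4 as seen from Ascl2, and so outside the listed neighbours.

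At the other end of the stretch, H19, an imprinted noncoding RNA expressed from the maternal chromosome, and Igf2, the paternally expressed growth factor beside it, did not pass. H19 was at 10.9, 10.5 and 10.3 FPKM with GCA, against 9.60, 10.9 and 10.1 FPKM with PBS (limma adjusted p = 0.593). Igf2 was at 6.02, 5.88 and 6.48 FPKM with GCA, against 7.45, 6.33 and 7.51 FPKM with PBS (limma adjusted p = 0.123). Both sets of values overlapped between groups. Th and Ins2, which lie between Igf2 and Ascl2, were not analysed here.

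Tnfrsf26 and Tnfrsf23, of a cluster of TNF receptor genes found in rodents, fell. Tnfrsf26 was at 8.77, 8.29 and 8.77 FPKM with GCA, against 12.7, 12.9 and 13.1 FPKM with PBS, and fell by 0.53 log2 units (SE 0.048, limma adjusted p = 0.00051). Tnfrsf23 was at 8.32, 8.24 and 9.29 FPKM with GCA, against 11.7, 12.4 and 10.9 FPKM with PBS, and fell by 0.40 (SE 0.066, limma adjusted p = 0.0058). Neither overlapped between groups. Tnfrsf22, which lies between them, averaged 2.26 ± 0.192 FPKM with GCA and 2.67 ± 0.1 FPKM with PBS (SD, n = 3 each). Every GCA library was below every PBS library for Tnfrsf22 too, but it did not pass (limma adjusted p = 0.133). Mrgpre, a receptor gene of the Mas-related family, was the other gene of this side that did not pass, at 6.58 FPKM with GCA and 6.86 FPKM with PBS on average (limma adjusted p = 0.75).

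Cars, the cysteinyl-tRNA synthetase gene, averaged 7.69 ± 0.547 FPKM with GCA and 9.16 ± 0.147 FPKM with PBS (limma adjusted p = 0.0323). Osbpl5, of the oxysterol-binding protein family, averaged 9.72 ± 0.708 and 11.65 ± 0.818 FPKM with GCA and PBS (limma adjusted p = 0.0498). Nadsyn1, the enzyme of the last step of NAD synthesis, averaged 2.41 ± 0.236 FPKM with GCA and 1.65 ± 0.225 FPKM with PBS (limma adjusted p = 0.0277; SD, n = 3 each for the 3 genes). These calls were fragile. The adjusted p of Osbpl5 was 0.0716 to 0.135 without any 1 of the 6 libraries. That of Cars was 0.0713 to 0.0997 without GCA replicates 1 or 3 or PBS replicates 1, 2 or 3, and that of Nadsyn1 was 0.0766 to 0.0928 without GCA replicates 1 or 3 or PBS replicates 2 or 3.

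Dhcr7, which encodes the last enzyme of cholesterol synthesis, starts just past Nadsyn1, 853.9 kb from Ascl2 and outside the stretch counted here. It was at 12.4, 11.8 and 10.7 FPKM with GCA, against 6.58, 7.48 and 6.37 FPKM with PBS. Every GCA library was above every PBS library (log2 difference 0.70, SE 0.075, limma adjusted p = 0.00105). Of the stretch itself, 14 further genes had values below the filter, none with a mean above 0.507 FPKM. The highest of these, R74862, an RNA on the strand opposite the start of Cd81, was at 0.533, 0.835 and 0.496 FPKM with GCA, against 0.437, 0.368 and 0.375 FPKM with PBS. Trpm5, also below the filter, went the other way. It was at 0.053, 0.045 and 0.067 FPKM with GCA, against 0.206, 0.121 and 0.079 FPKM with PBS. Those values stood for 19 fragments in all with GCA and 47 with PBS.

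**Figure D2:**
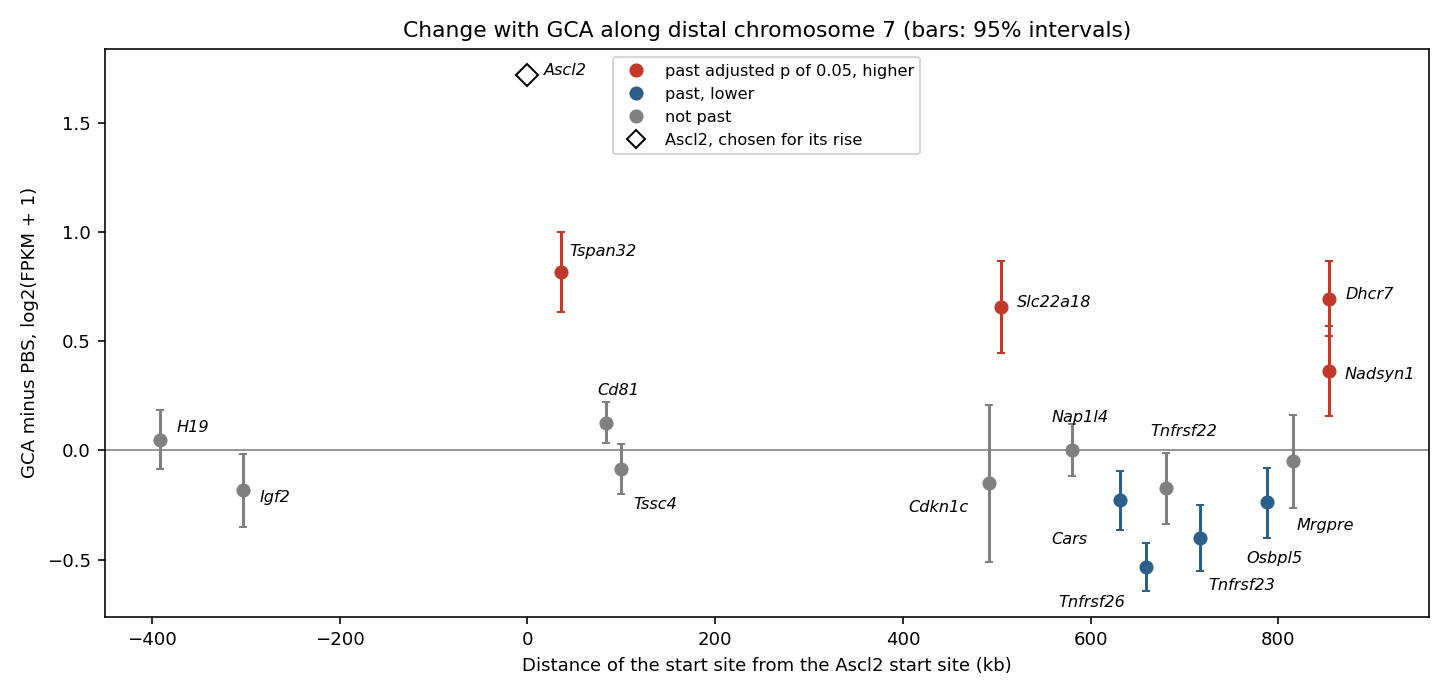
Difference between GCA and PBS on the log2(FPKM + 1) scale (y axis) against the distance of each gene's start site from that of Ascl2 in kb (x axis), for the 16 tested genes of the stretch and Dhcr7, with 95% intervals from limma. Tspan32 and Slc22a18 stand at 0.82 and 0.66 with Cd81, Tssc4 and Cdkn1c near 0 between them, and the 4 genes that fell lie to the right of Nap1l4. Ascl2 is drawn as an open diamond without an interval.

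The partners through which ASCL factors act were measured next. ASCL proteins bind DNA as pairs with an E protein (Tcf3, Tcf4 and Tcf12), and Id proteins capture E proteins and keep them off DNA. All 7 genes of this list were tested. Id2 and Id1 rose, the other 5 did not pass, none fell, and the median log2 difference was 0.06. Over all tested genes, 11.5% rose and 6.43% fell. Id2 averaged 40.1 ± 2.99 FPKM with GCA and 28.1 ± 1.91 FPKM with PBS (SD, n = 3 each), with all GCA libraries higher (limma adjusted p = 0.00291). Id1 averaged 8.41 ± 0.400 FPKM with GCA and 6.67 ± 0.723 FPKM with PBS (limma adjusted p = 0.0315). The call of Id1 was lost without GCA replicate 1 (adjusted p = 0.094), GCA replicate 2 (0.0687), PBS replicate 2 (0.0761) or PBS replicate 3 (0.083). The E protein genes averaged 13.5, 4.75 and 5.63 FPKM with GCA and 12.98, 4.87 and 5.94 FPKM with PBS for Tcf3, Tcf4 and Tcf12, and none of the 3 passed.

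Genes tied to Ascl2 in intestinal stem cells and Wnt signalling were mostly low. Of 12, 4 reached the filter, and 1 of them fell, 3 did not pass and none rose, where 6.43% of all tested genes fell. The median log2 difference was -0.07. The stem cell receptor Lgr5 averaged 0.509 FPKM with GCA and 0.532 FPKM with PBS, and the Wnt target Axin2 averaged 0.333 and 0.355 FPKM with GCA and PBS. Olfm4, a marker of intestinal stem cells in human tissue, was at 0.034, 0 and 0 FPKM with GCA and listed at 0 in every PBS library. The matrix protein gene Smoc2 was the one that fell, at 14.9 ± 0.796 FPKM with GCA and 18.7 ± 0.825 FPKM with PBS (SD, n = 3 each, limma adjusted p = 0.00922).

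Imprinted genes elsewhere in the genome were called at about the share of all genes. The list had 51 genes, of which 26 were tested. Of these 2 rose, 3 fell and 21 missed the threshold, where 11.5% of all tested genes rose and 6.43% fell. Their median log2 difference was -0.09, against 0.01 over all tested genes. Gatm, the first enzyme of creatine synthesis, whose imprinting is known from mouse placenta, averaged 6.66 ± 0.354 FPKM with GCA and 2.47 ± 0.133 FPKM with PBS (SD, n = 3 each, limma adjusted p = 0.000224). Igf2r, the receptor that clears IGF2, averaged 22.0 ± 1.07 FPKM with GCA and 27.1 ± 2.35 FPKM with PBS (limma adjusted p = 0.0247). Its call was lost without GCA replicates 1 or 3 or PBS replicates 1 or 2 (adjusted p = 0.0623 to 0.0745). Airn, the antisense RNA of Igf2r, fell by 0.29 log2 units (limma adjusted p = 0.0487). It lies partly across Igf2r on the opposite strand. Whether counting used strand is not known, so reads of the overlap cannot be told apart and the falls of Igf2r and Airn may not be separate. H13, which encodes a signal peptide peptidase, fell by 0.20 (0.0312), and Trappc9, of a vesicle transport complex, rose by 0.23 (0.0348). The call of H13 was lost without any 1 of the libraries other than GCA replicate 2 (0.0729 to 0.103), and that of Trappc9 without any 1 other than GCA replicate 3 (0.0686 to 0.109). That of Airn was lost without any 1 of the 6 (0.0541 to 0.15).

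A list of genes that maintain imprints or silence chromatin had 26 genes, of which 22 were tested. Of these 6 rose, 16 missed the threshold and none fell, where 11.5% of all tested genes rose and 6.43% fell, and their median log2 difference was 0.06. The calls of Uhrf1, Dnmt1 and Ezh1 held without any 1 library, and those of Ezh2, Setdb1 and Ehmt2 did not. Uhrf1, which brings the maintenance methylase to replicated DNA, averaged 8.14 ± 0.464 FPKM with GCA and 5.76 ± 0.508 FPKM with PBS (SD, n = 3 each, limma adjusted p = 0.00551). Dnmt1, that methylase, was at 12.4, 13.2 and 13.5 FPKM with GCA, against 10.5, 10.9 and 10.5 FPKM with PBS, with all GCA libraries higher (limma adjusted p = 0.00997). The Polycomb methyltransferase genes Ezh1 and Ezh2 rose by 0.30 and 0.32 log2 units (limma adjusted p = 0.00866 and 0.0165). The call of Ezh2 was lost without GCA replicate 1 (0.0592), PBS replicate 1 (0.0525) or PBS replicate 2 (0.0576). The histone methyltransferase genes Setdb1 and Ehmt2 rose by 0.19 and 0.17 log2 units (limma adjusted p = 0.0312 and 0.0454). Setdb1 was not called without any 1 of the libraries other than GCA replicate 2 (adjusted p = 0.0726 to 0.0974), and Ehmt2 not without any 1 other than PBS replicate 1 (0.0708 to 0.141). Zfp57 and Ctcf, which bind imprinting control regions, averaged 3.31 and 11.9 FPKM with GCA and 3.40 and 12.5 FPKM with PBS and did not pass.

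CD81 acts with other membrane proteins, and their genes were called at about the share of all genes. Of 18 partners and other tetraspanins, 15 were tested. Itga4 rose, Cd9 and Ptgfrn fell, and 12 missed the threshold, where 17.9% of all tested genes passed in either direction. The median log2 difference was 0.02. Cd9, a tetraspanin close to CD81, averaged 30.7 ± 3.47 FPKM with GCA and 38.8 ± 2.54 FPKM with PBS (SD, n = 3 each, limma adjusted p = 0.0355). Its call was lost without PBS replicate 2 (0.11) or PBS replicate 3 (0.113). Ptgfrn, a direct CD81 partner, fell by 0.23 (limma adjusted p = 0.0292), and the integrin gene Itga4 rose by 0.31 (0.0323). Ptgfrn was not called without any 1 of the libraries other than GCA replicate 2 (0.0677 to 0.0895), nor Itga4 without GCA replicates 1 or 3 or PBS replicates 2 or 3 (0.0789 to 0.108). Of 15 paralogs and channel subunits of the other members, 4 were tested, with a median log2 difference of 0.01, and 1 passed. It was Cdkn1a, the p21 relative of Cdkn1c, at 227.1 ± 4.22 FPKM with GCA and 202.3 ± 6.79 FPKM with PBS (SD, n = 3 each, limma adjusted p = 0.0391). Its call was lost without GCA replicates 1 or 3 or PBS replicates 2 or 3 (0.103 to 0.139).

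**Figure D3:**
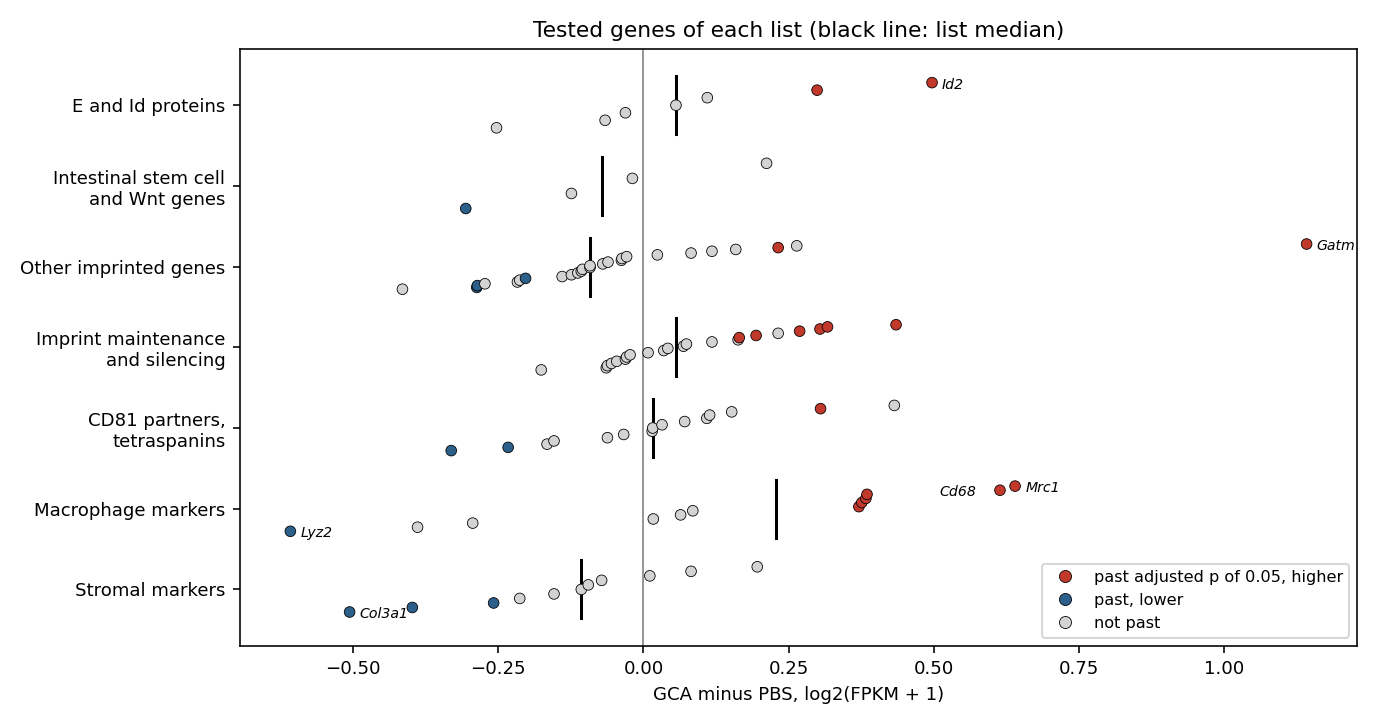
Difference between GCA and PBS on the log2(FPKM + 1) scale (x axis) for each tested gene of 7 lists (rows), coloured by whether it passed a limma adjusted p of 0.05, with the list median as a black line. List medians lie between -0.11 for the stromal markers and 0.23 for the macrophage markers.

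The labelled cell type was checked against markers. Of 13 stromal markers 11 were tested. Col1a2, Col3a1 and Pdgfrb fell, none rose and the other 8 did not pass, where 6.43% of all tested genes fell. The call of Col1a2 was lost without any 1 of the GCA replicates or without PBS replicate 2 (adjusted p = 0.0529 to 0.0905). The 13 markers' summed level was 2512 to 2707 FPKM in the GCA libraries and 2887 to 3133 FPKM in the PBS libraries. Macrophage markers were abundant, although the sort was against CD45 and CD11b. All 12 were tested, 6 rose, 1 fell and 5 did not pass, where 11.5% of all tested genes rose and 6.43% fell. Their summed level was 15300 to 16550 FPKM in GCA libraries and 17880 to 19990 FPKM in PBS libraries. Without Lyz2, the lysozyme gene that fell, the other 11 summed to 6857 to 7291 FPKM with GCA and 5252 to 5773 FPKM with PBS. The direction of the sum thus depends on that 1 gene. The 5 that did not pass went both ways. Log2 differences were -0.389 for Itgam, -0.294 for Adgre1, 0.085 for Ptprc, 0.064 for Csf1r and 0.017 for Tyrobp. For Itgam and Adgre1 the GCA libraries disagreed, with replicate 2 far above replicates 1 and 3. Itgam was at 24.9, 40.9 and 25.7 FPKM with GCA, against 36.7, 43.1 and 38.1 FPKM with PBS. Adgre1 was at 256.1, 419.9 and 224.0 FPKM with GCA, against 351.9, 382.4 and 330.5 FPKM with PBS. The part of macrophage transcripts in the values of Ascl2, Tspan32 and Slc22a18 was not tested. After quantile normalization the calls of Lyz2 and C1qb were lost (log2 differences -0.107 and 0.078, limma adjusted p = 0.438 and 0.368). That method gives genes of equal rank the same value in every library. It can thus shrink differences of genes as abundant as these, so the loss alone does not decide whether they differ.

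Of 10 trophoblast markers, 5 had values and none reached the filter, with summed levels of 0.058 to 0.321 FPKM with GCA and 0.027 to 0.58 FPKM with PBS. Intestinal stem cell markers were also below the filter in both groups. Of 12 T and NK cell markers, 5 had values and 2 were tested. Cd4 averaged 4.13 ± 0.439 FPKM with GCA and 1.62 ± 0.0484 FPKM with PBS (SD, n = 3 each, limma adjusted p = 0.000396), and Bcl6, a repressor that directs follicular helper T cells and is also made by other cells, averaged 3.53 ± 0.345 and 5.99 ± 0.423 FPKM with GCA and PBS (adjusted p = 0.00162). Cxcr5, the receptor that ASCL2 is known to induce in mouse helper T cells, had at most 2 fragments in any library. Lck and Zap70, kinases of T cell receptor signalling, averaged under 0.1 FPKM in both groups. Outside the list, and chosen after their values were seen, were 3 variable segments of the T cell receptor alpha locus. They were among the 10 largest log2 rises of called genes with every GCA library above every PBS library, predicted genes left out. Trav13n-4 averaged 13.8 ± 3.06 FPKM with GCA and 2.09 ± 0.600 FPKM with PBS, Trav14n-3 averaged 14.7 ± 5.62 and 2.20 ± 0.592 FPKM with GCA and PBS, and Trav14-3 averaged 31.2 ± 10.3 and 9.76 ± 3.11 FPKM (SD, n = 3 each). Such segments have near copies, between which counting could split reads, so the values of a single segment are uncertain. Of 7 B cell markers, 2 were tested, Cd22 and Blnk, and both rose, where 11.5% of all tested genes did. The endothelial list had 1 of 6 genes tested, Cdh5, which did not pass.

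The genes whose profile was most like that of Ascl2 were sought by the root mean square difference of log2(FPKM + 1), each gene centred on its own mean, over the 6 libraries. Leaving out predicted genes, the 5 nearest were Gbp8 at 0.113, Abcg3 at 0.140, Entpd1 at 0.159, Il1a at 0.207 and Pf4 at 0.220, where the median over the other 11983 tested genes was 0.866. The measure finds genes with a rise of similar size on this scale, so their group difference follows from the choice and is not tested. The log2 differences were 1.649 for Gbp8, 1.755 for Abcg3, 1.494 for Entpd1, 1.541 for Il1a and 1.301 for Pf4, against 1.719 for Ascl2. Ratios of means were less alike, such as 3.03 for Entpd1 and 7.57 for Il1a, against 5.07 for Ascl2. Gbp8, a guanylate-binding protein gene, was at 3.94, 3.79 and 4.84 FPKM with GCA, against 0.605, 0.816 and 0.538 FPKM with PBS. Abcg3, a transporter gene found in rodents, was at 6.66, 6.46 and 8.49 FPKM with GCA, against 1.19, 1.78 and 1.31 FPKM with PBS. In these and in Ascl2 itself, PBS replicate 2 was the highest PBS library.

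Entpd1, the ectoenzyme CD39 that degrades extracellular ATP, was at 26.5, 24.4 and 28.9 FPKM with GCA, against 8.18, 9.45 and 8.72 FPKM with PBS. The cytokine gene Il1a ranged from 2.45 to 4.26 FPKM with GCA and from 0.284 to 0.642 FPKM with PBS, and the chemokine gene Pf4 from 68.9 to 77.0 FPKM and from 26.3 to 33.8 FPKM. None of the 5 lies in the chromosome 7 stretch. Among the members, Tspan32 was nearest to Ascl2 (0.458, rank 56 of all genes compared), then Slc22a18 (0.550, rank 171), and Cdkn1c was farthest (0.978, rank 10782). This order of the members is that of their log2 differences, so it is not a separate result.

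**Figure D4:**
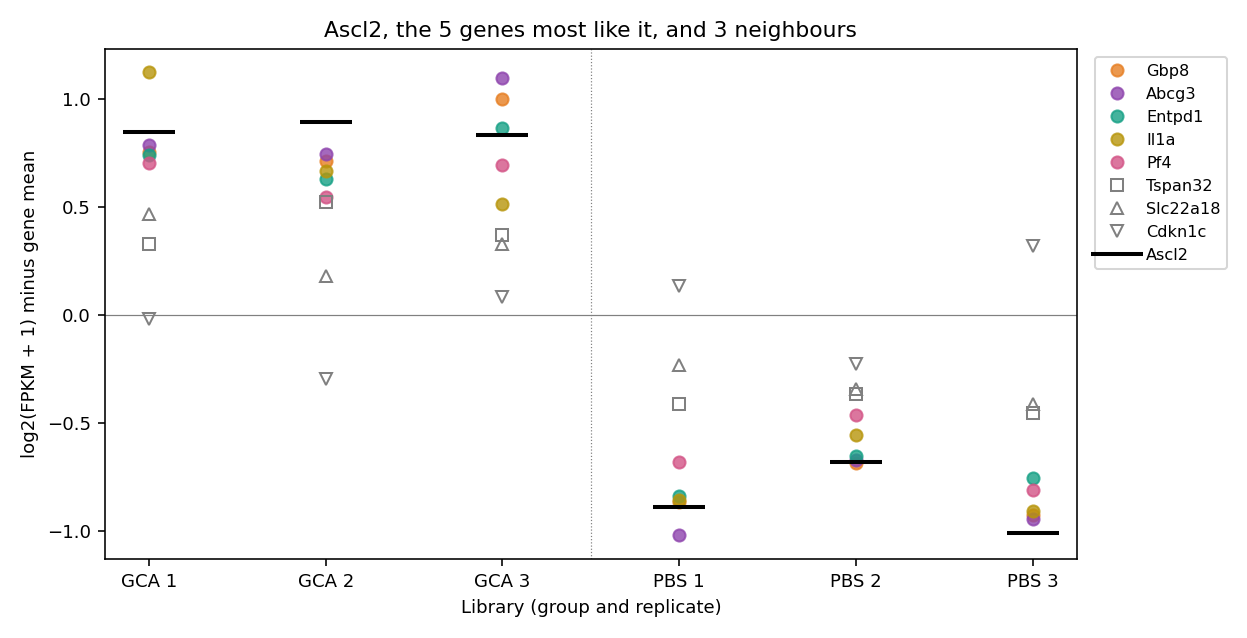
log2(FPKM + 1) minus the gene's mean over the 6 libraries (y axis) in each library (x axis, GCA on the left and PBS on the right), for Ascl2 (black bars), the 5 genes most like it (filled points) and 3 neighbours (open symbols). The filled points lie on the same side of 0 as the bars in every library, Tspan32 and Slc22a18 show the same direction at smaller size, and Cdkn1c does not separate the groups.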

How the data were processed

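Per the labels' protocols, RNA was read in pairs of 150 bp. The deposited values are FPKM by their pattern, since no header names the unit. Multiplied by the GENCODE M21 exon length, 92.79% of matched values, zeros included, were whole fragments within 0.02 fragment. The totals behind them were 17543509 to 18645932 fragments per library. Per the submitters' processing notes, mm8 and mm9 were builds and Bowtie 0.12.2 a tool; the sources used here give no counter, annotation or filter. Coordinates are GENCODE M21 (GRCm38), joined by Ensembl identifier for 27204 of 27263 genes.

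GCA was tested against PBS with limma 3.58.1 (R 4.3.3; trend, robust) on log2(FPKM + 1), for genes averaging 1 FPKM or more. Tests were two-sided, with Benjamini-Hochberg adjustment over all tested genes and a threshold of 0.05. The log scale understates changes of low genes. The fit was also run on simulated fragments with a common spread for all genes, unlike these libraries, so that run does not vouch for the calls here. No 2 libraries agreed within sampling noise (mean chi-square per gene 5.37 to 20.22 within groups, 23.99 to 30.22 between). Members and lists were chosen with earlier results of these data known. Genes were named by rule: all members, tested genes of the stretch, up to 4 passing genes per list with the smallest p plus examples, and the 5 most like Ascl2. The values of R74862 and Trpm5, the T cell receptor segments and the passing genes past the fourth of a list were added after they were seen. Alternatives were other normalizations, filters, pseudocounts, thresholds, a replicate block, voom on fragments, and leaving out each library. Python 3.11.15 (matplotlib 3.10.9, numpy 2.4.6, pandas 2.3.3) drew the plots and summed the tables.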

Additional observations from a re-analysis of the deposited data

How the results depend on the processing

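The directions and calls of Tspan32 and Slc22a18 held under all alternatives in which they were tested, and they fell out only with a filter at 5 FPKM, as Ascl2 did. Cd81, Tssc4, Cdkn1c and Nap1l4 stayed short of an adjusted p of 0.05 in each, but Cd81 (0.0689) passes a threshold of 0.1. Nap1l4, near 0, changed sign to -0.036 after quantile normalization and to -0.012 after median centring, and ran from -0.025 to 0.038 on leaving out each library; the cause was not tested. The difference of Ascl2 was 2.27 with a pseudocount of 0.1, 1.98 with 0.5 and 2.34 with limma-voom on fragments, since a smaller pseudocount compresses low values less. The number of genes called over the whole table was 2151, and 837 at an adjusted p of 0.01, 3161 at 0.1, 1075 with no filter and 1232 to 2088 on leaving out each library. Over the stretch from H19 to Nadsyn1, Ascl2 included, it was 8, and 5 at an adjusted p of 0.01, 9 at 0.1, 5 with a filter at 0.1 FPKM, 5 with no filter, 4 with a filter at 5 FPKM and 5 to 7 on leaving out each library. With the replicate number as a block it was 8, and 2094 over the whole table. Deviations of same-numbered libraries correlated at 0.082, 0.029 and 0.068 across genes for numbers 1 to 3, so the numbers were not taken to pair the samples, although each library correlated best with its own number. The block ended the calls of Airn, Cdkn1a, Ehmt2, Setdb1, Ptgfrn and Trappc9 (adjusted p = 0.0509 to 0.0782) and no other call named here. With no filter, which tests more genes, 13 calls of the lists, Id1, Cd9, Airn and Igf2r among them, were lost (adjusted p = 0.051 to 0.121), as were those of Cars (0.0958), Osbpl5 (0.149) and Nadsyn1 (0.0907). Depth limits Kcnq1, at 0 to 3 fragments a library.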
